A study of Bos taurus and Bos indicus with 6 samples.

Results

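The genes described here encode the core machinery of pre-mRNA splicing and the heterogeneous nuclear ribonucleoproteins (hnRNPs), measured in blood leukocytes from Brahman and Holstein cattle under tick infestation. Members were taken by name: every gene whose symbol begins with HNRNP, SNRP, SRSF, SF3A, SF3B or PRPF, or with LSM followed by a digit, and whose probe set on the array carries that symbol alone. This gave 93 probe sets for 63 genes, of 9155 genes with such a probe set on the array. Each gene was represented by the probe set with the highest mean over the 6 arrays. By name they fall into 8 SNRP, 11 LSM, 9 SF3A and SF3B, 10 PRPF, 9 SRSF and 16 HNRNP genes.

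Blood was drawn from 6 female cattle of 6 months of age, 3 of the Holstein breed (annotated as Bos taurus) and 3 of the Brahman breed (annotated as Bos indicus). All 6 animals were under heavy challenge with the cattle tick Rhipicephalus microplus, so both groups share the infestation, and uninfested animals were not analysed here. Red cells were lysed and the whole white cell pellet was used without sorting, and RNA of each animal was hybridised to its own Affymetrix bovine array. Values are log2 expression from RMA, the authors' background correction, quantile normalisation and probe summary, and differences are Brahman minus Holstein on that scale. In unsorted cells, fewer cells of a type and less RNA per cell cannot be told apart.

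Splicing removes introns from new transcripts. The U1 and U2 small nuclear ribonucleoproteins (snRNPs) recognise the start of the intron and its branch site, and the U4/U6.U5 tri-snRNP then joins to form the active spliceosome. Each snRNP carries a ring of Sm proteins, or of LSM proteins in the case of U6. SR proteins (SRSF genes) mostly promote the use of exons, and hnRNPs coat the transcript and often repress them. In lymphocytes this balance is known for the alternative exons of CD45 (PTPRC), which HNRNPL and its relative HNRNPLL help to exclude.

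The 6 pan-leukocyte markers averaged 12.45 to 12.62 on the 6 arrays. The erythroid marker HBB, which residual red cells would carry, averaged 9.67 in Holstein (8.89 to 10.22) and 9.79 in Brahman (9.60 to 10.15). The means of 5 erythroid markers overlapped, at 5.62 to 6.06 in Holstein against 5.75 to 5.86 in Brahman. Of these markers 3 had higher and 2 lower values in Brahman, ALAS2 at -0.56 and HBA at -0.14. The mean of 12 T cell markers was 9.73, 9.66 and 9.86 on Holstein 1, 2 and 3 and 10.25, 10.08 and 10.20 on Brahman 1, 2 and 3, with 11 of 12 markers higher in Brahman. The means of 4 B cell markers (9.90 to 10.12 in Holstein, 10.19 to 10.36 in Brahman) and of 6 NK markers (8.03 to 8.30 against 8.35 to 9.02) did not overlap either, although only 2 of the 4 B cell markers had higher values in Brahman and the NK mean was led by GZMB at 2.51. Of the NK markers 5 had higher values in Brahman and 1 lower, PRF1 at -0.60, and the median difference of the 6 was 0.09. The means of 8 neutrophil markers (8.76 to 9.12 against 8.82 to 9.14) and 4 monocyte markers (8.99 to 9.44 against 8.77 to 9.12) overlapped. These means join markers of opposite direction. Of the neutrophil markers 4 had higher and 4 lower values in Brahman, from ALPL at 1.42 to FCGR3A at -0.78. Of the monocyte markers 1 was higher (VCAN, 0.92) and 3 lower, with CD14 at -0.94. ALPL, VCAN and CD14 did not overlap between the breeds. The hybridisation spike-in controls were higher in Holstein, at 9.94 to 10.38 against 9.64 to 9.80, and so was the actin 3′ minus 5′ difference, at 1.73 to 1.98 against 1.64 to 1.72. The part of cell mixture, spike-in level and RNA quality in the results that follow was not tested. Values are given below for a fit that holds the spike-in level as a covariate, called the spike-in covariate. Because that level did not overlap between the breeds, the fit can tell it apart from breed only in part. At an adjusted p under 0.05 limma called 0 of 24016 probe sets with the spike-in covariate, beside 33 with breed as the only term.

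No member passed the test across all probe sets, and most breed differences among splicing genes were small, as they were over all genes. HNRNPL, an hnRNP that binds CA-rich RNA, had the smallest p, with values 1.54-fold higher in Brahman. SF3B5, a small subunit of the SF3b complex that holds the U2 snRNP at the branch site, was next, with values 1.48-fold lower in Brahman. By class, 7 of 8 SNRP and 9 of 11 LSM genes had lower values in Brahman, with medians of -0.23 and -0.13. The SNRP count includes SNRPD3 by its brighter probe set, and its other probe set went the other way. Higher values in Brahman were found for 13 of 16 HNRNP genes, with a median of 0.10. The median over all 63 members was -0.02, beside -0.01 over all 9155 genes, and 35 of 63 (55.6%) had lower values, beside 51.7% of all genes.

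**Figure D1:**
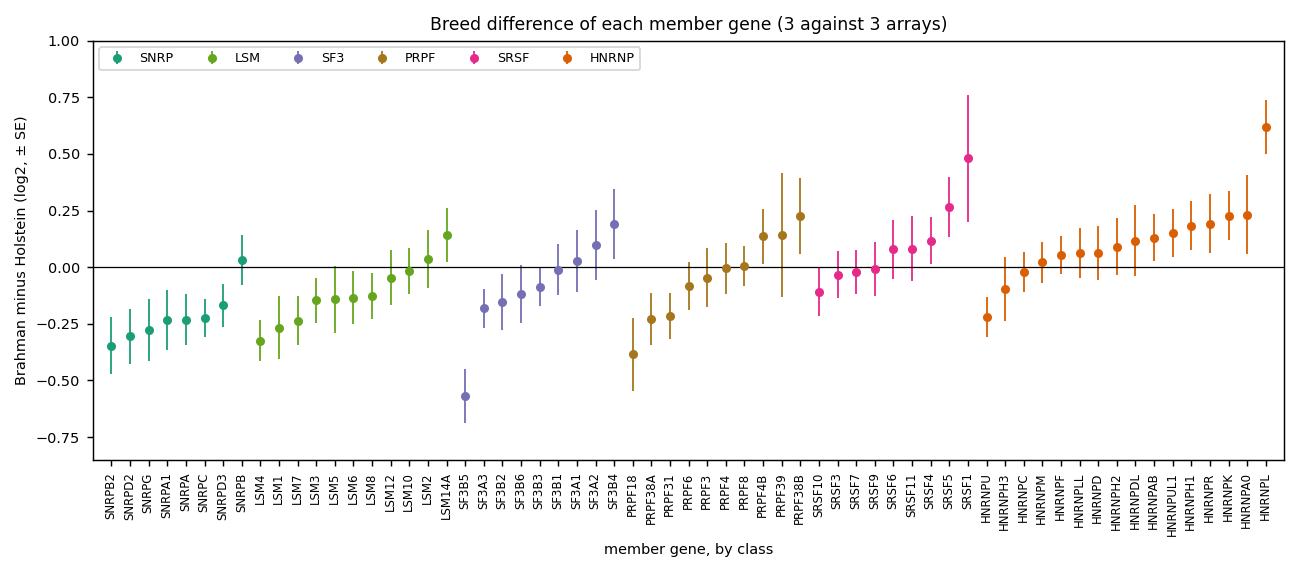
Brahman minus Holstein difference (log2, vertical axis) of each of the 63 member genes, ordered by class along the horizontal axis; points are differences and bars the moderated standard errors from 3 against 3 arrays. Most points lie within 0.25 of 0, with HNRNPL at 0.62 and SF3B5 at -0.57 farthest out, the SNRP genes mostly below 0 and the HNRNP genes mostly above it.

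Limma called 0 of 63 members at an adjusted p under 0.05, beside 0.137% of the 24016 probe sets, and the smallest adjusted p of a member was 0.12. At an unadjusted p under 0.05, 7 members (11.1%) were lower in Brahman, beside 9.62% of all genes, and 1 (1.59%) was higher, beside 6.23%. The breeds did not overlap for 11 members (17.5%) with lower values in Brahman, beside 12.2% of all genes, and for 1 (1.59%) with higher values, beside 10.4%. The share of lower members was near the background by p and above it by non-overlap, and that of higher members was below it by both. These shares were not matched for signal level, whose median was 9.79 for members and 7.61 for all genes. The 11 non-overlapping lower members include PRPF38A, for which signal over background was not measured. Leaving out an array moved the 7 lower members to 3 when it was Holstein 2 or Brahman 1, to 2 when it was Brahman 2 and to 4 when it was Brahman 3, and the spike-in covariate moved them to 3. The 1 higher member became 5 without Holstein 3. The median 95% confidence interval of a member reached 0.28 to either side of its difference (0.20 for the narrowest). Differences smaller than 0.25 were found for 53 of the 63 members, beside 7005 of all 9155 genes.

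The SNRP genes encode the Sm ring and the proteins particular to U1 and U2. SNRPB2, a U2 protein, had the smallest p of the class. It read 9.83, 10.14 and 9.71 on Holstein 1, 2 and 3 and 9.54, 9.51 and 9.59 on Brahman 1, 2 and 3. Every Brahman value lay below every Holstein value, and Holstein 2 stood highest. The difference was -0.35 (SE 0.12, unadjusted p = 0.0255, limma adjusted p = 0.303). It was -0.22 without Holstein 2 and -0.03 with the spike-in covariate.

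SNRPC, the U1-C protein that helps U1 pair with the 5′ splice site, read 10.63, 10.57 and 10.56 in Holstein against 10.41, 10.39 and 10.29 in Brahman. Here the 2 breeds were separated by 0.15 with little spread within either, and the difference was -0.23 (SE 0.08, unadjusted p = 0.0311, limma adjusted p = 0.319). The second U1 protein of the class, SNRPA (U1-A), read 8.61, 8.32 and 8.37 against 8.29, 8.23 and 8.08, again without overlap, at a difference of -0.23 (limma adjusted p = 0.418), which was -0.14 without Holstein 1. The other U2 protein, SNRPA1, differed by -0.23 as well, but its Brahman values of 9.88, 9.45 and 9.81 reached the lowest Holstein value of 9.88, and Brahman 2 alone was clearly low, with a difference of -0.10 without it.

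Of the Sm ring proteins, SNRPD2 read 11.76, 11.94 and 11.54 in Holstein against 11.54, 11.41 and 11.38 in Brahman, so Holstein 3 and Brahman 1 met. Its difference was -0.31 (SE 0.12, unadjusted p = 0.0386, limma adjusted p = 0.341), and -0.16 with the spike-in covariate. SNRPG read 9.33, 9.75 and 9.35 against 9.19, 9.32 and 9.08, a difference of -0.28 with a gap between the breeds of only 0.0076, and -0.14 without Holstein 2. SNRPB, which encodes the SmB protein, was the exception, at 10.74, 10.49 and 10.80 against 10.81, 10.65 and 10.67, with full overlap. Its difference was 0.03, with a 95% confidence interval from -0.23 to 0.29.

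SNRPD3, another Sm protein, has 2 probe sets that went in opposite directions. The brighter read 10.47, 10.28 and 10.26 in Holstein against 10.21, 10.19 and 10.10 in Brahman (-0.17, unadjusted p = 0.12), which was -0.10 without Holstein 1 and -0.34 with the spike-in covariate. The other read 6.67, 6.74 and 6.70 against 7.04, 6.86 and 6.92 (0.24, unadjusted p = 0.0293, limma adjusted p = 0.313). Both separate the breeds without overlap, and no direction can be given for SNRPD3. In the class as a whole 5 of 8 genes, SNRPD3 by its brighter probe set among them, had non-overlapping lower values in Brahman, beside 12.2% of all genes. An unadjusted p under 0.05 was reached by 3 of 8, all lower, beside 9.62% of all genes. With 8 genes, such counts say little about the class.

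LSM proteins form a ring on U6 snRNA (LSM2 to LSM8) and a related ring with LSM1 that acts in cytoplasmic mRNA decay. LSM4, which sits in both rings, read 9.67, 9.49 and 9.55 in Holstein and 9.23, 9.26 and 9.25 in Brahman. The Brahman arrays lay within 0.03 of each other and all below Holstein, and the difference was -0.32 (SE 0.09, unadjusted p = 0.00737, limma adjusted p = 0.214). With each array left out in turn it ran from -0.36 to -0.27. LSM7, a member of both rings too, read 9.86, 9.84 and 9.62 against 9.65, 9.42 and 9.54, with Holstein 3 just below Brahman 1 (-0.24, unadjusted p = 0.0642).

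LSM1, the ring member that marks the decay complex, varied most within the class. It read 8.73, 8.98 and 8.47 in Holstein against 8.38, 8.56 and 8.44 in Brahman, so the breeds overlapped and Holstein 2 set much of the difference of -0.27 (unadjusted p = 0.0934), which was -0.14 without it and 0.01 with the spike-in covariate. LSM3, LSM5, LSM6 and LSM8 differed by -0.15 to -0.13, all with overlap, and without Holstein 2 LSM5 was below 0.01 and LSM6 -0.04. LSM2 (0.04) and LSM14A, which encodes a P-body protein (0.14, and 0.06 without Holstein 2), had higher values in Brahman. LSM10, which belongs to the U7 snRNP of histone mRNA processing, differed by -0.02 and LSM12 by -0.05.

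**Figure D2:**
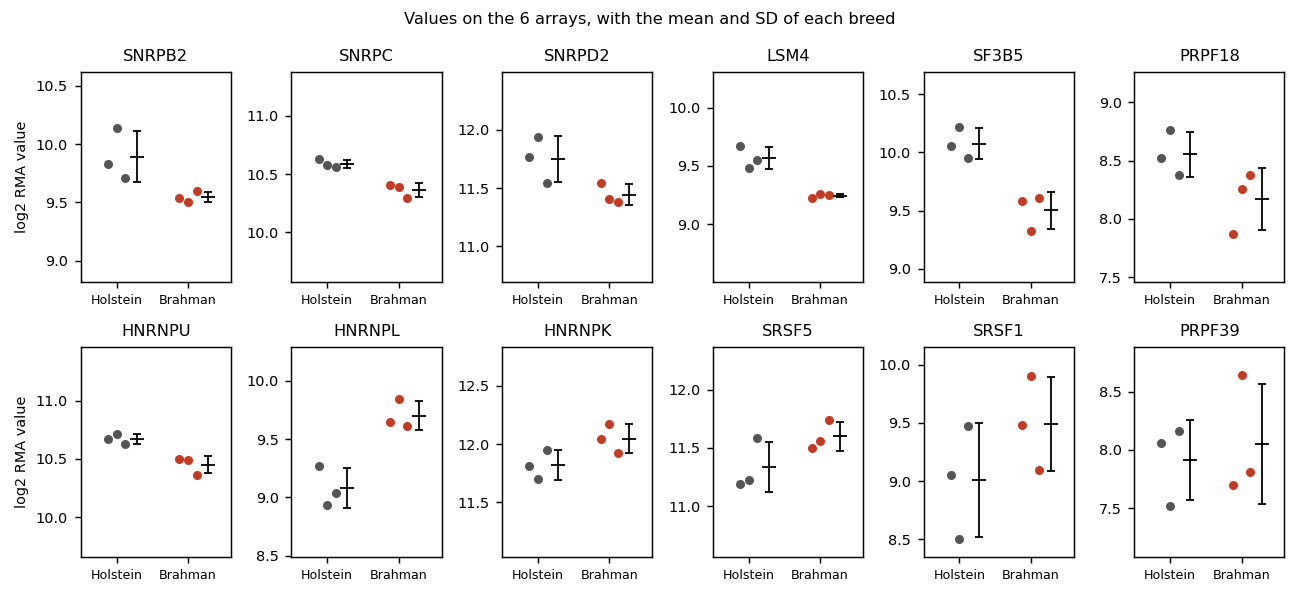
Log2 RMA values of 12 member genes on the 3 Holstein (grey) and 3 Brahman (red) arrays, with the mean and SD of each breed beside the points; each panel spans 1.8 log2 units around the gene's own mean. The breeds are apart for SNRPB2, SNRPC, LSM4, SF3B5, HNRNPU and HNRNPL and overlap or meet for the other 6 genes, most widely for SRSF1 and PRPF39.

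The SF3A and SF3B proteins build the U2 snRNP's branch-site clamp. SF3B5 read 10.05, 10.21 and 9.96 in Holstein and 9.58, 9.32 and 9.61 in Brahman. All Holstein values exceeded all Brahman values, with a gap of 0.35, and Brahman 2 was lowest. The difference was -0.57 (SE 0.12, 95% confidence interval -0.85 to -0.29, unadjusted p = 0.00162, limma adjusted p = 0.14), from -0.63 to -0.48 with each array left out, and -0.39 (unadjusted p = 0.11) with the spike-in covariate.

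SF3A3, the SF3a subunit that contacts the branch-site region, read 9.27, 9.34 and 9.18 against 9.07, 9.09 and 9.08, without overlap, at -0.18 (SE 0.09, limma adjusted p = 0.41), and -0.09 with the spike-in covariate. The large scaffold SF3B1, which grips the branch-point adenosine and is often mutated in myelodysplasia, read 11.76, 11.99 and 11.69 against 11.69, 11.81 and 11.91. These values overlap throughout, and the difference was -0.01 with a 95% confidence interval from -0.28 to 0.25. Among the remaining subunits SF3B2 (-0.15), SF3B6 (-0.12) and SF3B3 (-0.09) had lower and SF3A1 (0.03), SF3A2 (0.10) and SF3B4 (0.19) higher values, all with overlap. Without Holstein 2, SF3A2 was -0.08, SF3B4 0.01 and SF3B2 -0.08, and SF3B2 was -0.07 without Brahman 2. The class median of -0.09 turned to 0.03 when the probe sets of a gene were averaged or the second brightest was used.

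PRPF genes encode factors of the tri-snRNP and of later steps. PRPF18, which acts in the second catalytic step, read 8.52, 8.76 and 8.37 in Holstein and 7.87, 8.25 and 8.38 in Brahman. Brahman 3 met Holstein 3, and the low value of Brahman 1 carried much of the difference of -0.38 (SE 0.16, unadjusted p = 0.0466, limma adjusted p = 0.361), which was -0.24 without it and 0.01 with the spike-in covariate. Its second probe set differed by -0.38 as well (unadjusted p = 0.0878), and by -0.21 without Holstein 2. PRPF31, a tri-snRNP protein whose gene is mutated in retinitis pigmentosa, read 8.58, 8.43 and 8.36 against 8.34, 8.16 and 8.23, a narrow separation at -0.22 (unadjusted p = 0.0661), with -0.12 on its other probe set and -0.35 with the spike-in covariate.

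PRPF8, the protein at the catalytic centre, was level between the breeds, at 10.78, 10.78 and 10.74 against 10.82, 10.66 and 10.83. Its difference was below 0.01, with a 95% confidence interval from -0.20 to 0.21. PRPF39, which associates with U1, varied more than any other PRPF gene, at 8.06, 7.52 and 8.16 in Holstein against 7.70, 8.65 and 7.81 in Brahman. Its difference of 0.14 (SE 0.27) changed sign without Holstein 2 (-0.06) or Brahman 2 (-0.15), and was 0.32 without Brahman 1 and was -0.36 with the spike-in covariate. PRPF38A read 4.94 to 5.45 over the arrays, around the lower quartile of probe set means (5.08), and whether it exceeds background was not measured. PRPF38B, a relative of PRPF38A, differed by 0.23 on its brighter probe set and by -0.08 on the other, and the brighter was 0.04 without Holstein 1 and 0.76 (unadjusted p = 0.0115) with the spike-in covariate. The median of the 10 PRPF genes was -0.03, and 0.02 after a further quantile normalisation.

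SRSF genes encode the SR proteins, which bind exonic enhancers. None of the 9 reached an unadjusted p under 0.05, beside 9.62% of all genes lower and 6.23% higher in Brahman. The breeds overlapped for all 9, where 12.2% of all genes had non-overlapping lower and 10.4% non-overlapping higher values. With 9 genes, such counts say little about the class. SRSF5 had the smallest p, at 11.19, 11.23 and 11.58 in Holstein against 11.50, 11.55 and 11.74 in Brahman, with Holstein 3 inside the Brahman range. Its difference was 0.27 (SE 0.13, unadjusted p = 0.0818, limma adjusted p = 0.43).

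SRSF1, the founding SR protein, had the widest spread, at 9.06, 8.50 and 9.48 in Holstein against 9.48, 9.90 and 9.10 in Brahman. Holstein 2 was lowest and Brahman 2 highest, and the difference of 0.48 (SE 0.28, 95% confidence interval -0.17 to 1.14) was 0.23 without Holstein 2, 0.28 without Brahman 2 and -0.23 with the spike-in covariate. Its other probe sets differed by 0.78 and 0.18, unadjusted p 0.0611 and 0.233, the first by 0.48 without Holstein 2 and the second by 0.05 without Holstein 1. SRSF3, SRSF7, SRSF9 and SRSF10 had values lower by 0.01 to 0.11 and SRSF4, SRSF6 and SRSF11 values higher by 0.08 to 0.12.

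Among the HNRNP genes, HNRNPL read 9.27, 8.94 and 9.04 in Holstein and 9.64, 9.85 and 9.61 in Brahman. The breeds lay 0.35 apart, with Brahman 2 highest and Holstein 2 lowest. The difference was 0.62 (SE 0.12, 95% confidence interval 0.34 to 0.90, unadjusted p = 0.00107, limma adjusted p = 0.12) and ran from 0.55 to 0.71 with each array left out. It was 0.34 (unadjusted p = 0.116) with the spike-in covariate.

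The further HNRNPL probe sets did not all follow. One read 7.49, 6.29 and 7.22 against 7.34, 8.23 and 7.52 and differed by 0.70 (unadjusted p = 0.0781), with overlap, and by 0.35 without Holstein 2 or 0.43 without Brahman 2. The dimmest read 5.28 to 5.45 on all arrays and differed by -0.04, at a level low enough that background was not told from signal. Over the 6 arrays, the genes most correlated with the brightest HNRNPL probe set were STAT5B, ME1 and INSIG1, at a Pearson r of 0.99 each. These are the top 3 of 9154 genes over 6 arrays, and are given as a description.

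HNRNPLL, the HNRNPL relative that regulates CD45 exons in activated T cells, depended on the probe set. Its brightest read 7.46, 7.57 and 7.26 in Holstein against 7.59, 7.42 and 7.47 in Brahman, overlapping at a difference of 0.06. The next read 7.18, 7.29 and 7.15 against 7.50, 7.62 and 7.53 (0.35, SE 0.09, unadjusted p = 0.00555, limma adjusted p = 0.201). The dimmest read 6.32, 6.39 and 6.49 against 6.90, 6.67 and 6.96 (0.44, unadjusted p = 0.00443, limma adjusted p = 0.19). These last 2 separate the breeds without overlap. They were singled out after their values were seen.

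HNRNPU, a nuclear scaffold protein that also binds chromatin-associated RNA, was the main exception among HNRNP genes. It read 10.67, 10.71 and 10.63 in Holstein and 10.50, 10.49 and 10.36 in Brahman, without overlap, a difference of -0.22 (SE 0.09, unadjusted p = 0.0382, limma adjusted p = 0.341). HNRNPC, which binds uridine tracts, and HNRNPH3 differed by -0.02 and -0.10 with overlap.

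HNRNPK, a poly-cytosine binding protein, read 11.81, 11.70 and 11.95 in Holstein against 12.04, 12.18 and 11.92 in Brahman. Holstein 3 and Brahman 3 crossed by a small margin, and the difference was 0.23 (SE 0.11, unadjusted p = 0.0738), with 0.19 on the other probe set and 0.06 with the spike-in covariate. The splicing regulator gene HNRNPH1, which binds guanine runs, differed by 0.18, HNRNPR by 0.19, HNRNPUL1 by 0.15 and HNRNPAB by 0.13, all with overlap. HNRNPR was 0.09 without Holstein 1 and 0.32 (unadjusted p = 0.0241) without Holstein 3. HNRNPH1 was 0.12 without Holstein 1, 0.11 without Brahman 3 and 0.35 with the spike-in covariate. HNRNPUL1 was 0.07 without Brahman 3, and HNRNPAB was 0.06 without Holstein 2 and -0.10 with the spike-in covariate. The 2 dimmer HNRNPUL1 probe sets went the other way, at -0.07 and -0.36, the latter at -0.24 without Holstein 1 and -0.23 without Brahman 1.

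HNRNPA0, which binds AU-rich elements of inflammatory mRNAs, read 10.53, 10.03 and 10.73 in Holstein against 10.63, 10.77 and 10.59 in Brahman. Only Holstein 2 was low, and the difference of 0.23 was 0.03 without it, 0.38 without Holstein 3 and -0.27 with the spike-in covariate. The next brightest HNRNPA0 probe set differed by 0.31 (unadjusted p = 0.0674), by 0.24 without Holstein 2 and by 0.18 without Brahman 2. The dimmest differed by 0.52, and by 0.02 without Holstein 2. Both overlapped between the breeds. HNRNPM, HNRNPF, HNRNPD, HNRNPH2 and HNRNPDL differed by 0.02 to 0.12, all within the spread of the animals.

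**Figure D3:**
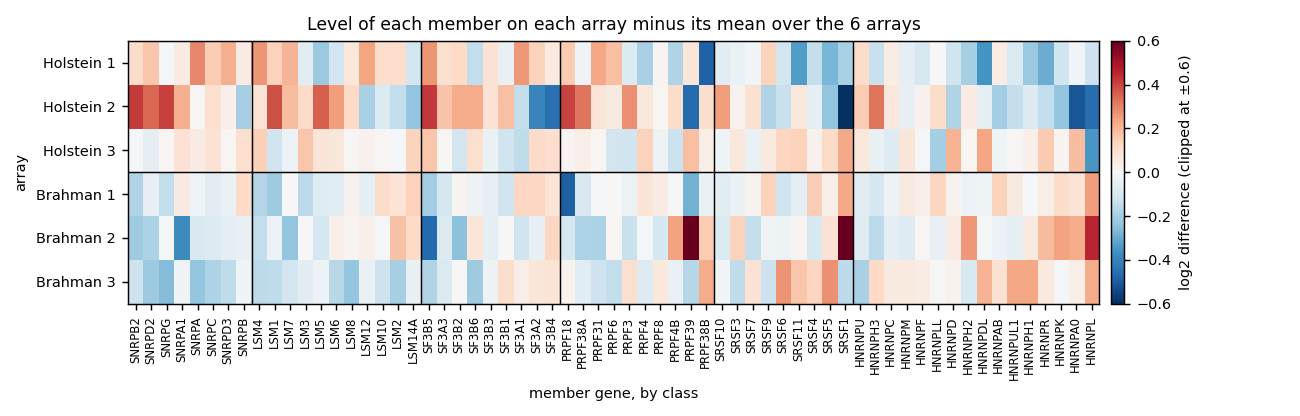
Level of each of the 63 members (horizontal axis, by class) on each of the 6 arrays (vertical axis) as the log2 difference from that gene's mean over the arrays, with red above and blue below the mean and colours clipped at ±0.6. Holstein 2 shows the strongest colours in both directions, red in many SNRP, LSM and SF3 genes and blue in SRSF1, HNRNPA0 and HNRNPL.

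The arrays did not contribute equally. Holstein 2 was the highest of the 6 arrays for 22 of 63 members (34.9%) and the lowest for 15 (23.8%), where over all genes it was highest for 24.9% and lowest for 20.6%. Holstein 3 was highest for 5 members (7.94%, beside 8.47% of all genes) and lowest for 3 (4.76%, beside 18.4%). The typical member had an SD over the 6 arrays of 0.16, beside 0.16 for the median gene on the array.

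Class means per array show the same tilt in small steps. The SNRP mean was 10.16, 10.19 and 10.06 on Holstein 1, 2 and 3 and 9.99, 9.89 and 9.88 on Brahman 1, 2 and 3. The LSM mean was 8.92, 8.94 and 8.90 against 8.83, 8.85 and 8.74. The HNRNP mean was 10.56, 10.58 and 10.68 against 10.70, 10.72 and 10.73, with Holstein 3 only 0.02 below Brahman 1. None of these 3 means overlapped between the breeds, nor did the SF3 mean (10.14, 10.09 and 10.06 against 10.03, 9.96 and 10.03), while the PRPF and SRSF means overlapped. The T cell marker mean and the spike-in level did not overlap either.

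Within each array, the mean of the SRSF and HNRNP genes exceeded that of the SNRP and LSM genes by 1.18, 1.17 and 1.38 in Holstein and by 1.45, 1.5 and 1.57 in Brahman. This contrast is unaffected by a shift of a whole array. An array difference that varies with signal level need not cancel, since median levels were 10.81 (SRSF and HNRNP) and 9.41 (SNRP and LSM). Only the change of the contrast between arrays is read, since levels of different genes are not comparable on this array. The contrast was formed after the class values were seen, so it has no test. Over the 16 alternative settings the SNRP median stayed between -0.28 and -0.20, the LSM median between -0.19 and -0.08, the SRSF median between 0.01 and 0.16 and the HNRNP median between 0.05 and 0.16.

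**Figure D4:**
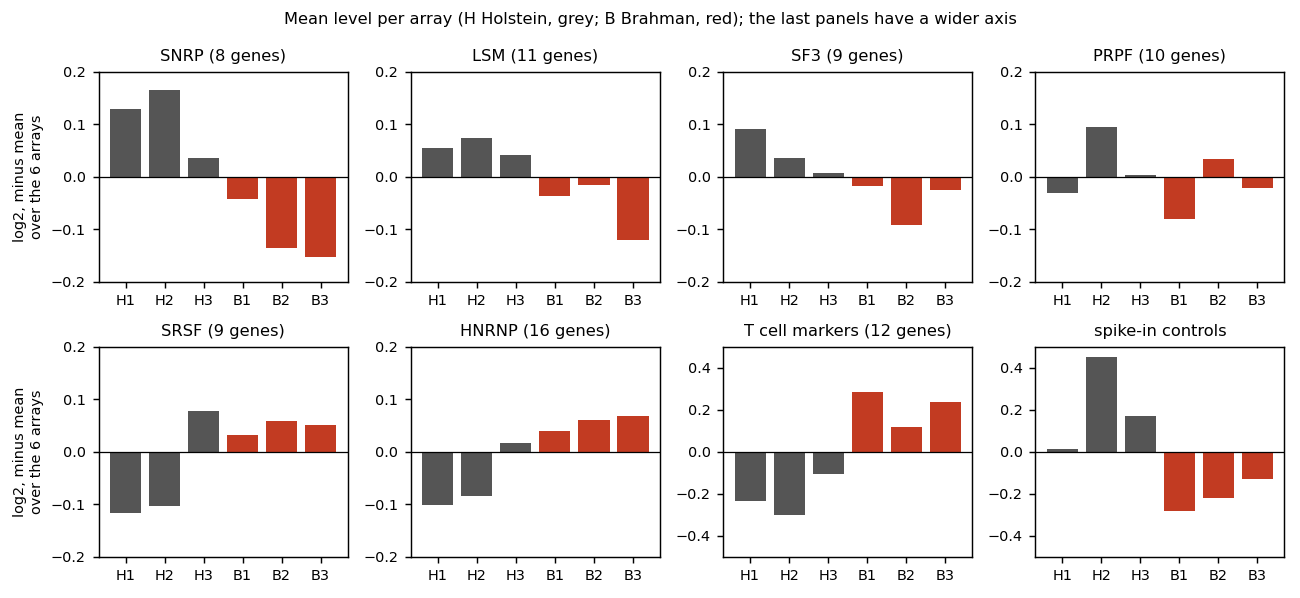
Mean log2 level of each class of members, of 12 T cell markers and of the spike-in controls on each array, as the difference from the mean over the 6 arrays (bars; Holstein grey, Brahman red). The SNRP and LSM bars are above 0 on the Holstein arrays and below 0 on the Brahman arrays, the HNRNP bars are above 0 on the Brahman arrays and on Holstein 3, and the T cell and spike-in panels, drawn on a wider axis, separate the breeds too.

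Several members have more than 1 probe set: 21 genes have 30 further ones, of which 20 share the sign of the brightest and 10 do not. The median gap between the difference of a further probe set and that of the brightest was 0.16. SF3B1 shows how far probe sets of a gene can diverge by animal. Its brightest probe set read 11.76, 11.99 and 11.69 in Holstein, highest on Holstein 2, while its dimmest read 9.49, 7.98 and 9.46, far lowest on Holstein 2, and 8.86, 10.06 and 8.89 in Brahman, highest on Brahman 2. SRSF1, HNRNPA0 and the second HNRNPL probe set were also lowest on Holstein 2 and highest on Brahman 2.

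**Figure D5:**
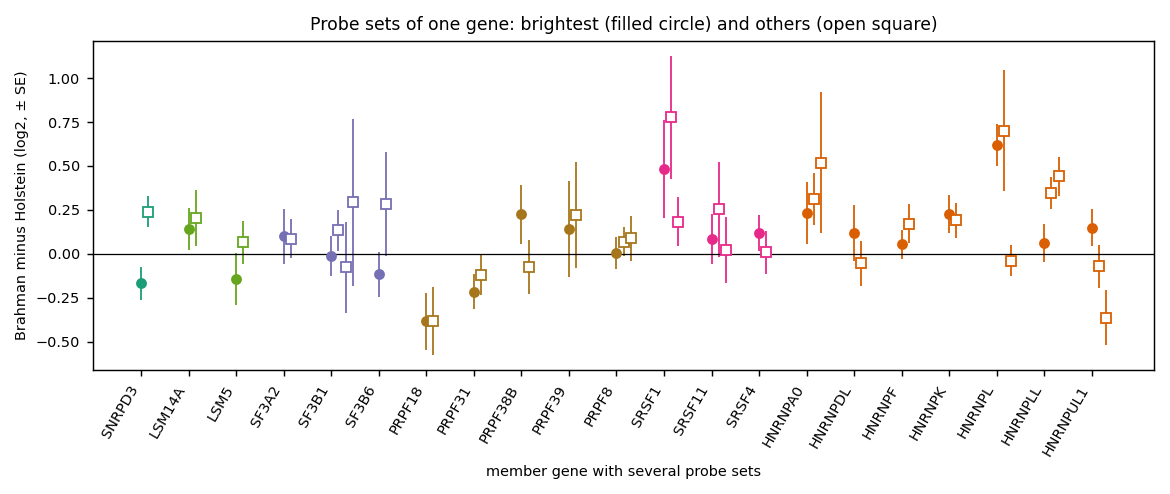
Brahman minus Holstein difference (log2, vertical axis, bars are standard errors) of every probe set of the 21 members with more than 1, with the brightest probe set as a filled circle and the others as open squares. The probe sets lie close together for PRPF18, HNRNPK and SF3A2 and on opposite sides of 0 for SNRPD3, SF3B6, PRPF38B and HNRNPUL1.

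A second list held 127 other splicing genes, such as snRNP assembly factors, helicases, exon junction proteins and further RNA-binding regulators, and 99 of them were measured. At an unadjusted p under 0.05, 6 were lower and 4 higher in Brahman (6.06% and 4.04%), both below the shares of all genes. Limma called 0 at an adjusted p under 0.05, beside 0.137% of all probe sets. The median difference was -0.02. Breeds did not overlap for 18 with lower values (18.2%, beside 12.2% of all genes) and for 7 with higher values (7.07%, beside 10.4%).

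ILF2, a nuclear RNA-binding protein, had the smallest p of that list. It read 9.56, 9.65 and 9.43 in Holstein against 8.93, 9.10 and 8.70 in Brahman, without overlap, at -0.64 (SE 0.13, unadjusted p = 0.00119, limma adjusted p = 0.123). PHF5A, which sits beside SF3B5 in the SF3b complex, went the other way from SF3B5, at 10.19, 9.82 and 10.03 against 10.51, 10.60 and 10.52 (0.53, SE 0.11, unadjusted p = 0.00185, limma adjusted p = 0.144). Both SF3b subunits separate the breeds without overlap, in opposite directions.

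PCBP2, the poly-cytosine binding hnRNP E2, differed by 1.01, but Holstein spread widely, at 10.28, 9.34 and 10.86 against 10.98, 11.20 and 11.32 (SE 0.34, unadjusted p = 0.0206), and the difference was 0.60 without Holstein 2. SNRNP25 and RNPC3, proteins of the minor U12-type spliceosome, differed by -0.30 and -0.37 (limma adjusted p = 0.295 and 0.341), RNPC3 by -0.22 without Brahman 3. GEMIN8 of the SMN complex, which loads Sm rings onto snRNA, differed by -0.35, the export helicase gene DDX39A by -0.34 and the U2-associated U2SURP by -0.26. STRAP, another SMN-associated protein, differed by 0.57 in the other direction, as did the exon junction protein CASC3 (0.23) and the cold-inducible CIRBP (0.47), while the exon junction core protein RBM8A differed by -0.26. Of these, STRAP and CIRBP overlapped between the breeds, CIRBP was 0.71 without Holstein 3 and RBM8A was -0.16 without Holstein 2.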

How the data were processed

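The authors deposited log2 values, 1 for each probe set on each array, computed with RMA per the submitters' processing notes. No source used here names its version. Quantile normalisation is meant to remove global differences between arrays. The array medians of the deposited values still ran from 6.54 on Holstein 2 to 6.61 on Brahman 1. Of 24128 probe sets, 112 array controls were set aside and 24016 tested. Gene symbols came from the platform annotation; all 63 member genes matched RefSeq by Entrez identifier. Brahman was compared with Holstein with limma 3.58.1 in R 4.3.3 (lmFit and eBayes, default prior, breed as the only term, two-sided, Benjamini-Hochberg over all probe sets). All-gene shares use 1 probe set per gene, the brightest. Named genes were the 10 members with the smallest p in each direction, per class the smallest p and the highest SD, members whose probe sets disagree in sign with one at an unadjusted p under 0.05, and the 12 smallest p-values of the second list; other members are named for their role, with their values seen. Members and lists were chosen with earlier results of these data known. The pipeline was tested on simulated data with planted differences larger than that of any member. That test therefore does not cover differences of the size found for members. With 3 arrays per breed, precision is limited by their number. Alternatives covered normalisation, dim probe sets, prior, array weights, replicate block, spike-in covariate, choice of probe set and each array left out.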

Additional observations from a re-analysis of the deposited data

How the results depend on the processing

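Limma called 0 members under each of the 16 alternatives, and the SNRP, LSM, SRSF and HNRNP medians kept their sign in all of them. The members lower at an unadjusted p under 0.05 (7) became 4 after a further quantile normalisation and 3 with the spike-in covariate, and ranged from 2 to 9 with each array left out. Those higher (1) became 2 after quantile normalisation, with the replicate block, with the second brightest probe set and with the mean of probe sets, and ranged from 1 to 5 with each array left out. The median over members (-0.02) was -0.046 with equal array medians, 0.021 after quantile normalisation and 0.0018 with the spike-in covariate, and -0.044 to -0.015 with each array left out. The SF3 median was -0.044 after quantile normalisation and 0.026 with the second brightest probe set or the mean of probe sets. With the spike-in covariate the PRPF median was 0.051 and the HNRNP median 0.15. With each array left out the LSM median ran from -0.19 to -0.084, the SRSF median from 0.032 to 0.16 and the HNRNP median from 0.049 to 0.16.

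Of 368 values of 23 named members, 13 changed sign. With the spike-in covariate these were PRPF18 (0.0062), LSM1 (0.012), SRSF1 (-0.23), HNRNPA0 (-0.27), HNRNPAB (-0.10) and PRPF39 (-0.36). With the second brightest probe set they were HNRNPUL1 (-0.072), PRPF38B (-0.077) and SNRPD3 (0.24), and with the mean of probe sets HNRNPUL1 (-0.10) and SNRPD3 (0.035). With each array left out PRPF39 ran from -0.15 (without Brahman 2) to 0.32 (without Brahman 1), and it was -0.056 without Holstein 2. The cause was not tested.

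The labels do not say that the replicate numbers pair the animals, and the values showed no clear sign of pairing. Deviations of same-numbered arrays correlated at 0.11, -0.04 and -0.07, and 2 of 6 arrays correlated best with their own number. With the replicate block 6 members had an unadjusted p under 0.05 with lower and 2 with higher values. Limma called 0 members with this block, beside 10 of 24016 probe sets. Signal over background was not measured, which limits statements on dim probe sets such as PRPF38A.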
